A study of Homo sapiens with 9 samples.

Results

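The 10 genes described here encode alpha and beta tubulin, the paired subunits of microtubules. They were chosen by name, as the rows of the deposited count table whose Ensembl identifiers map to TUBA1A, TUBA1B, TUBA1C and TUBA4A (alpha) and to TUBB, TUBB2A, TUBB2B, TUBB3, TUBB4B and TUBB6 (beta). Each symbol matched 1 row, so 10 of the 24344 genes in the table were members, and all 10 passed the filter on low counts. The rule uses names alone and no measured value, although the choice was made with earlier results of these data known.

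The cells were MDA-MB-231, a mesenchymal line established from a human breast adenocarcinoma, and total RNA was sequenced after 48 h of treatment. Cells of the CKI group received Compound Kushen Injection, made from the roots Kushen and Baituling, at 2 mg/mL of total alkaloids. The Kushen and the Baituling group received an injection of one root alone, prepared by the same process and used at an equivalent dilution. Each group had 3 libraries, with total counts between 20144628 and 23782071 over the 9 libraries. All 3 injections are plant extracts of many compounds, and the cells are those of a single line. Untreated cells were not analysed here, so each difference below is between treatments and gives no direction against untreated cells. The series text calls the libraries biological replicates without saying whether they came from separate cultures, so the spread between them may be partly technical.

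Alpha and beta tubulin form a dimer, and dimers add to and leave the ends of microtubules. The several genes of each kind, called isotypes, encode very similar proteins that differ mainly in their tails and in the tissues that use them. Tubulin mRNA is under autoregulation: when free dimer accumulates in the cytoplasm, TTC5 recognises the first residues of tubulin as it emerges from the ribosome, and SCAPER then recruits the CCR4-NOT deadenylase, which leads to decay of the mRNA. Agents that break down microtubules raise free dimer and lower tubulin mRNA in many cell types, and agents that stabilise them have the opposite effect. Tubulin synthesis also follows proliferation, since the spindle is built from the same dimers.

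Positions are those of build GRCh37. TUBA1B (chromosome 12, 49521565 to 49525180, minus strand), TUBA1A (49578469 to 49582863, minus strand) and TUBA1C (49582519 to 49668383, plus strand) form a cluster on chromosome 12, and TUBA4A is on chromosome 2 (220114432 to 220142624, minus strand). TUBB lies on chromosome 6 (30685212 to 30693315, plus strand), away from the neighbours TUBB2A (3153731 to 3157778, minus strand) and TUBB2B (3223558 to 3231964, minus strand) on the same chromosome. TUBB3 is on chromosome 16 (89987800 to 90005169, plus strand), TUBB4B on chromosome 9 (140135739 to 140138159, plus strand) and TUBB6 on chromosome 18 (12307668 to 12344319, plus strand). Every member has a canonical transcript of 4 exons. The deposited counts are per gene, so coding exons and UTRs were not separated.

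Promoter sequences are shown for TUBA1B, TUBA1C and TUBB, 3 members that were lower in CKI than in Baituling by more than the fold threshold of the study, and for TUBA4A, which was higher. Each is the 250 bases before the transcription start, 5′ to 3′ on the strand of the gene, from RefSeq on build GRCh38.p14. Their positions are chr12:49131396-49131645 (minus strand) for TUBA1B, chr12:49264832-49265081 (plus strand) for TUBA1C, chr6:30720102-30720351 (plus strand) for TUBB and chr2:219253919-219254168 (minus strand) for TUBA4A. Capitals mark every match, on either strand, of the CCAAT box (CCAAT), the GC box (GGGCGG), the TATA box (TATAAA) and the element TTTGAA, which is a core of the cell cycle homology region found in many genes of the late cell cycle. Matches of the GC box may overlap each other.

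TUBA1B: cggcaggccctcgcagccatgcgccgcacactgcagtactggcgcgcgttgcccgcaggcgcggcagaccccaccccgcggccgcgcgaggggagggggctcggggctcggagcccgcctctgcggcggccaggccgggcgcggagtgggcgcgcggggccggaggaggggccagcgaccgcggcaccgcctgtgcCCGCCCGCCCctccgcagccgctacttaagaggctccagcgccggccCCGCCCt
TUBA1C: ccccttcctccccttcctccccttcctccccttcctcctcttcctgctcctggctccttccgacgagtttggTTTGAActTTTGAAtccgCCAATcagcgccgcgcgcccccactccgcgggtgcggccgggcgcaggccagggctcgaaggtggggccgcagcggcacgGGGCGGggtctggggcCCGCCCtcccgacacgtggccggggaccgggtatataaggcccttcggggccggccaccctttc
TUBB: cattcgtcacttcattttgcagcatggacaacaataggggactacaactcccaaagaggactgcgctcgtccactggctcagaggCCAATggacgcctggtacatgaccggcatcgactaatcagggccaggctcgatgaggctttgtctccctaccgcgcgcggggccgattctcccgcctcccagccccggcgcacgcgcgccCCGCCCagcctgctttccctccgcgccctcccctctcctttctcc
TUBA4A: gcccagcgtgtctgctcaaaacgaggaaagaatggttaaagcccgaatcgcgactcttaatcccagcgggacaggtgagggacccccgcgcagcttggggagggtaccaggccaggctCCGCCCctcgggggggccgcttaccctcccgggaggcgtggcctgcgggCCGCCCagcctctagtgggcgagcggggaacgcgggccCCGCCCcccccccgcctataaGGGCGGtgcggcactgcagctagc

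All 10 members were matched in RefSeq, with 15 start windows, and 1 window of each member began at the start of its canonical transcript. Of these 10 windows, 8 held a GC box, against 42.6% of all 35116 RefSeq windows of the same length. A CCAAT box was in 7 of the 10, against 32.0% of all windows. The windows of all genes include other starts of the same gene. Over all 15 member windows the GC box was in 9 and the CCAAT box, counted separately, in 9. TTTGAA was in 2, those of TUBA1C and TUBB4B, against 13.3%, and TATAAA was in 1, that of TUBB2A, against 10.7%. TUBA1B and TUBA4A were alike in these letters, with 3 and 4 GC boxes and none of the other 3 motifs. A relation between the motifs and the mRNA levels was not tested. A match is a stretch of letters and not a measured binding site.

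Levels are in CPM, which relates a gene's count to the size of its library, after scaling between libraries by the trimmed mean of M values (TMM). Differences are log2 fold changes with their standard error (SE) from a quasi-likelihood fit in edgeR over all 14195 genes tested, and adjusted p is the Benjamini-Hochberg value over those genes. A gene passed the test with an adjusted p under 0.05. It was called when, in addition, its log2 fold change was above 1 or below -1, which is the threshold of the study. In a negative log2 fold change the first treatment named has the lower level.

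In CKI against Baituling, which asks what the presence of Kushen in the mixture goes with, the major tubulins were lower in CKI. Of the 10 members, 7 were lower and 2 higher by adjusted p, beside 37.0% and 39.1% of all genes tested, and 5 were called lower and 1 higher, beside 7.91% and 11.2% of all genes. The median log2 fold change of the members was -1.03 and that of all genes tested was 0.03. In Kushen against Baituling, 8 members were lower and 2 higher (36.1% and 35.6% of all genes), and 4 were called lower and 1 higher (6.73% and 8.50%), with a median of -0.78 against 0.02 for all genes. In CKI against Kushen, which asks what Baituling adds to the mixture, 5 members were lower and 2 higher (20.2% and 19.6% of all genes). None was called in either direction there, where 0.197% of all genes were called lower and 1.70% higher, and the median was -0.19 against 0.01. The member called higher in both comparisons with Baituling was TUBB3, which passed the filter on low counts through the CKI and Kushen libraries. The comparisons share their libraries by pairs, so their values are given side by side and are not independent of each other. In bulk RNA, a smaller share of cells with high tubulin mRNA and less tubulin mRNA in every cell cannot be told apart.

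**Figure D1:**
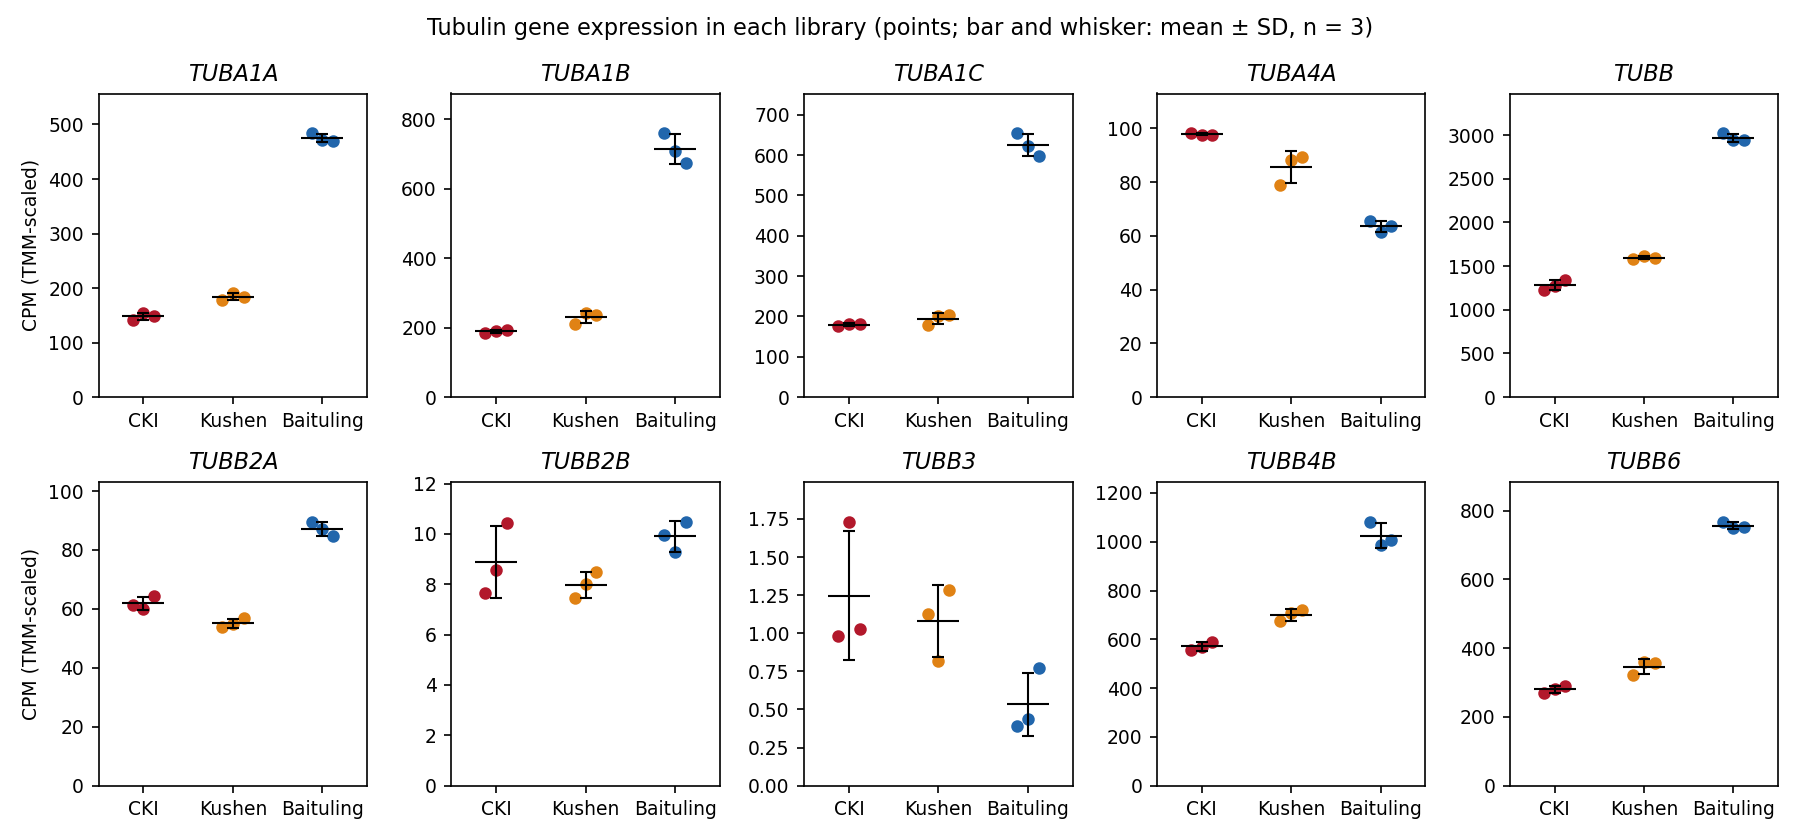
Expression of the 10 tubulin genes in each of the 9 libraries, in TMM-scaled CPM on linear axes from 0, with points for libraries and a bar and whisker for the mean ± SD (n = 3 per treatment). TUBA1A, TUBA1B, TUBA1C, TUBB, TUBB2A, TUBB4B and TUBB6 were highest in the 3 Baituling libraries, and TUBA4A and TUBB3 were lowest there. TUBB2B and TUBB3 had low levels. The CKI points of TUBB2B overlapped those of Kushen and Baituling, and the CKI points of TUBB3 overlapped those of Kushen only.

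In the comparisons with Baituling, the alpha genes of the chromosome 12 cluster had the widest differences among the members. TUBA1B, the main alpha isotype of most dividing cells, had 185, 191 and 194 CPM in CKI, 211, 243 and 236 in Kushen, and 760.3, 708 and 675 in Baituling. The 3 groups did not overlap, and the Baituling libraries stood far above the others. Its level was 3.76-fold higher in Baituling than in CKI (log2 fold change -1.91 ± 0.05 SE, adjusted p = 1.36e-16), and Kushen libraries had 32.2% of the Baituling level (-1.64 ± 0.05, adjusted p = 1.82e-15). The step from Kushen to CKI was much smaller, at -0.27 ± 0.05 (adjusted p = 0.000457).

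TUBA1A, the alpha isotype best known from developing neurons, had 142, 155 and 148 CPM in CKI, 178, 192 and 184 in Kushen, and 484, 472 and 470.4 in Baituling. Again no groups overlapped, and the order of the groups was that of TUBA1B. The log2 fold change was -1.68 ± 0.04 in CKI against Baituling (adjusted p = 5.14e-17), -1.37 ± 0.04 in Kushen against Baituling (adjusted p = 1.34e-15) and -0.31 ± 0.04 in CKI against Kushen (adjusted p = 1.65e-05).

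TUBA1C, another widely expressed alpha isotype, had 176, 181 and 182 CPM in CKI, 179, 199.9 and 204 in Kushen, and 654, 623 and 599 in Baituling. Here CKI and Kushen overlapped, and both lay below Baituling. Its log2 fold change was -1.80 ± 0.05 in CKI against Baituling (adjusted p = 1.18e-16) and -1.69 ± 0.05 in Kushen against Baituling (adjusted p = 4.81e-16). In CKI against Kushen it was -0.12 ± 0.05 and did not pass the test (adjusted p = 0.0745), although it passed without Kushen replicate 1 (-0.17, adjusted p = 0.00384) and without Baituling replicate 1 (-0.12, adjusted p = 0.0370).

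TUBA4A, an alpha isotype whose gene does not encode the usual last tyrosine, went the other way. Its level was 98.2, 97.6 and 97.4 CPM in CKI, 78.8, 88.4 and 89.5 in Kushen, and 65.5, 61.4 and 63.8 in Baituling. The groups did not overlap and their order was the reverse of that of the cluster genes. TUBA4A was 1.54-fold higher in CKI than in Baituling (0.62 ± 0.05, adjusted p = 1.48e-09) and 1.34-fold higher in Kushen than in Baituling (0.43 ± 0.05, adjusted p = 4.45e-07). CKI exceeded Kushen (0.19 ± 0.05, adjusted p = 0.00437), and no comparison of this gene reached the fold threshold.

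Among the beta genes, TUBB was the most abundant in every library. TUBB, the class I beta tubulin of most dividing cells, had 1232, 1272 and 1346 CPM in CKI, 1581, 1615 and 1588 in Kushen, and 3023, 2939 and 2948 in Baituling. No groups overlapped. CKI libraries had 43.2% of the Baituling level (log2 fold change -1.21 ± 0.04, adjusted p = 1.30e-15) and Kushen libraries 53.7% (-0.90 ± 0.04, adjusted p = 1.63e-13), and only the first of these passed the fold threshold. CKI was lower than Kushen (-0.31 ± 0.04, adjusted p = 5.16e-06).

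TUBB4B, the class IVb isotype, is also broadly expressed and had 555, 568 and 590.4 CPM in CKI, 674, 709 and 721 in Kushen, and 1082, 987 and 1007 in Baituling. The groups were again apart in the order CKI, Kushen, Baituling. Its log2 fold changes of -0.84 ± 0.04 in CKI against Baituling (adjusted p = 1.41e-12), -0.55 ± 0.04 in Kushen against Baituling (adjusted p = 1.22e-09) and -0.30 ± 0.04 in CKI against Kushen (adjusted p = 3.17e-05) all passed the test, and none reached the fold threshold.

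TUBB6, the class V isotype, had 269.7, 279.8 and 290.4 CPM in CKI, 322, 361 and 356 in Kushen, and 768, 748 and 752 in Baituling. Its groups were apart in the same order. The log2 fold change was -1.43 ± 0.05 in CKI against Baituling (adjusted p = 9.31e-16), -1.13 ± 0.05 in Kushen against Baituling (adjusted p = 4.69e-14) and -0.31 ± 0.05 in CKI against Kushen (adjusted p = 3.33e-05).

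TUBB2A, a class II isotype rich in brain, had another order. It had 61.2, 60.1 and 64.5 CPM in CKI, 53.7, 54.7 and 56.8 in Kushen, and 89.6, 87.1 and 84.6 in Baituling, so CKI lay between Kushen and Baituling and no groups overlapped. CKI was higher than Kushen (0.17 ± 0.05, adjusted p = 0.00909), which missed the threshold without CKI replicate 3 (0.14, adjusted p = 0.0566), and lower than Baituling (-0.49 ± 0.05, adjusted p = 1.38e-08), and Kushen was lower than Baituling (-0.66 ± 0.05, adjusted p = 2.75e-10). Its neighbour TUBB2B, the other class II isotype, was low, with 7.65, 8.58 and 10.4 CPM in CKI, 7.44, 8.0 and 8.47 in Kushen, and 9.95, 9.27 and 10.5 in Baituling. Only Kushen and Baituling did not overlap (-0.31 ± 0.11, adjusted p = 0.0194), and this no longer passed without Kushen replicate 1 (-0.27), Baituling replicate 1 (-0.30) or Baituling replicate 3 (-0.28). The values of TUBB2B were 0.16 ± 0.11 in CKI against Kushen (adjusted p = 0.276) and -0.16 ± 0.11 in CKI against Baituling (adjusted p = 0.211), and the latter passed without CKI replicate 3 (-0.29, adjusted p = 0.0253).

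TUBB3, the class III isotype that marks neurons and is raised in some tumours resistant to taxanes, was close to the filter on low counts. Its level was 0.98, 1.73 and 1.03 CPM in CKI, 1.13, 0.82 and 1.29 in Kushen, and 0.39, 0.44 and 0.77 in Baituling. CKI and Kushen overlapped and both lay above the Baituling libraries, which held 8 to 14 counts each. TUBB3 passed the filter through the CKI and Kushen libraries, where it was higher, so its tests against Baituling are given as a description only. The log2 fold change was 1.23 ± 0.35 in CKI against Baituling (adjusted p = 0.00408), 1.02 ± 0.37 in Kushen against Baituling (adjusted p = 0.0183) and 0.21 ± 0.29 in CKI against Kushen (adjusted p = 0.598). The call rests on single libraries: the value in CKI against Baituling was 0.92 without CKI replicate 2, and in Kushen against Baituling it was 0.98 without Kushen replicate 1, 0.89 without Kushen replicate 3, 0.83 without Baituling replicate 1 and 0.90 without Baituling replicate 2, with adjusted p up to 0.0808. Exons of a readthrough gene on the same strand cover 92.8% of the exon bases of TUBB3. MC1R, the neighbouring gene that the readthrough joins to TUBB3 and which encodes the melanocortin receptor of pigment cells, averaged 4.06 CPM after CKI, 3.71 after Kushen and 1.69 after Baituling. Its part in the TUBB3 counts was not tested.

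**Figure D2:**
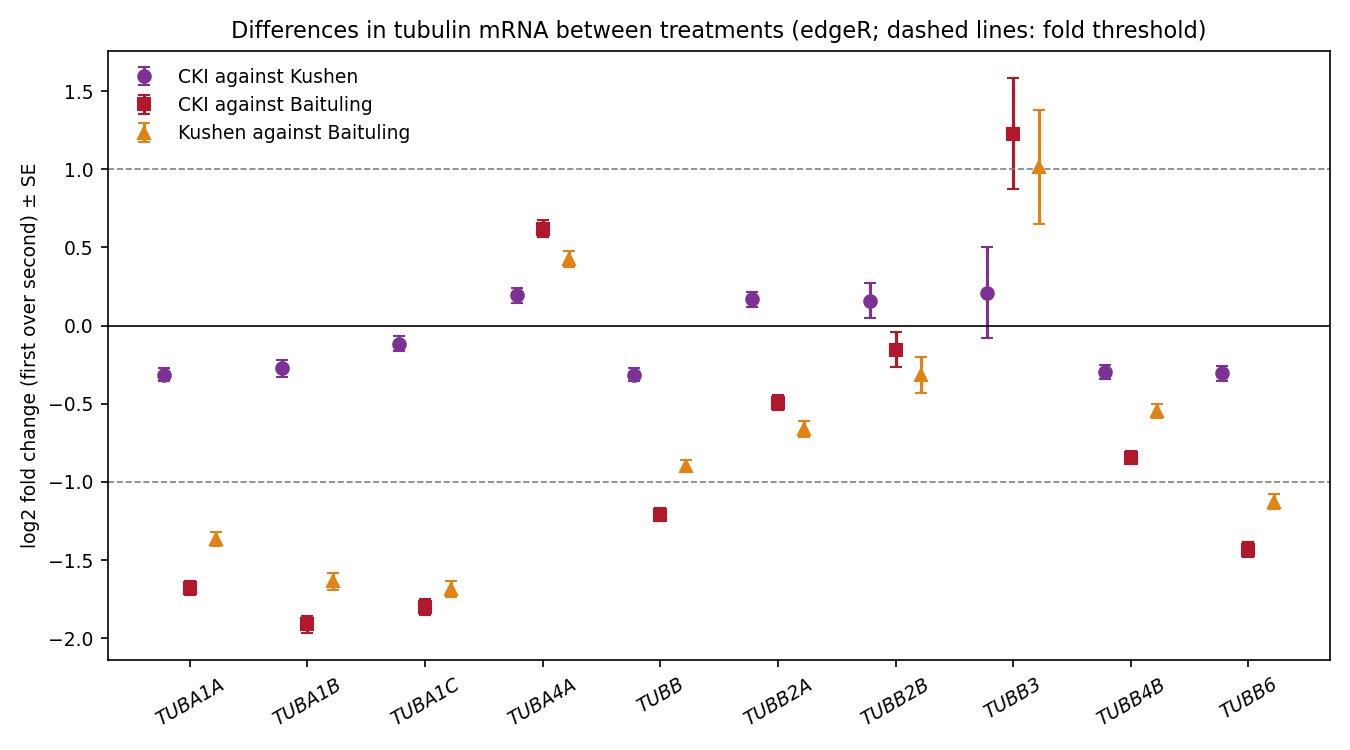
Log2 fold changes of the 10 members ± SE in the 3 comparisons, from the edgeR fit, with dashed lines at the fold threshold of 1. CKI against Kushen stays within -0.31 to 0.21, and the 2 comparisons with Baituling reach -1.91 and -1.69 for the alpha genes of chromosome 12 and lie above 0 for TUBA4A and TUBB3.

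A test against the fold threshold itself, rather than against no difference, was run with the glmTreat function of edgeR. TUBA1A, TUBA1B, TUBA1C, TUBB and TUBB6 passed it in CKI against Baituling, with the largest adjusted p for TUBB (6.00e-05). All of these but TUBB passed it in Kushen against Baituling, with the largest adjusted p for TUBB6 (0.0212). TUBB3 passed it in neither (adjusted p = 0.639 in CKI against Baituling).

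The scaling between libraries bears on these sizes. The TMM factors were 0.877 to 0.899 in Baituling, 1.02 to 1.05 in Kushen and 1.08 to 1.10 in CKI, so they followed the treatments. When plain library totals were used, the median over all genes was 0.32 in CKI against Baituling, and TUBA1B was at -1.62, TUBA1A at -1.39 and TUBB at -0.92, below the fold threshold. TUBB2B in CKI against Baituling changed its sign to 0.13 on that scale and passed the test on neither. Members called were then 4 lower and 1 higher in CKI against Baituling and 3 lower and 1 higher in Kushen against Baituling. The shares of all genes that passed or were called on that scale were not computed.

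Several members share sequence or overlap other genes, and the way the authors' counting treated such reads is not given in the sources used here. Of the windows of 150 bases, the read length, along the canonical transcripts, 48.7% in TUBB2A and 41.6% in TUBB2B also occurred in another tubulin transcript, mostly in each other. The same held for 19.1% in TUBA1B, 8.01% in TUBA1A, 7.22% in TUBA1C, 2.66% in TUBB and 2.31% in TUBB3, and for none in TUBA4A, TUBB4B or TUBB6. The libraries do not mark strand, and an antisense gene covers 72.6% of the exon bases of TUBA1B, while STK16, a kinase gene, covers 30.6% of those of TUBA4A. Opposite-strand genes also cover 23.6% in TUBA1C, 21.4% in TUBB, 7.93% in TUBB4B and 6.22% in TUBA1A. Counts of the TUBA1 genes, and of the TUBB2 genes, were also summed. The comparisons follow in the order CKI against Kushen, CKI against Baituling and Kushen against Baituling. TUBA1A, TUBA1B and TUBA1C together gave -0.23 ± 0.05, -1.81 ± 0.05 and -1.58 ± 0.05. For TUBB2A and TUBB2B together the values were 0.17 ± 0.05, -0.45 ± 0.05 and -0.62 ± 0.05 in that order.

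Levels of different genes were compared as CPM per kilobase of the canonical transcript. In CKI the order ran from TUBB (510.3) through TUBB4B (365), TUBB6 (149), TUBA1B (117), TUBA1A (88.8), TUBA1C (63.6), TUBA4A (47.7) and TUBB2A (38.3) to TUBB2B (4.62) and TUBB3 (0.731). Kushen had the same order, from 634 for TUBB to 0.632 for TUBB3. In Baituling TUBB (1181) and TUBB4B (656) were again first, but TUBA1B (439) stood above TUBB6 (402), and TUBB2A (53.9) above TUBA4A (31.0). No neighbours in these orders had overlapping libraries in any group, but the order rests on 1 canonical length per gene. TUBA1C had a higher mean CPM than TUBA1A in every group (180 against 148 in CKI). It stood below TUBA1A per kilobase through its canonical length of 2823 bases against 1672. The ratio of alpha to beta and the shares below use the same lengths.

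Summed over the 10 members, tubulin mRNA was 2823 ± 98.7 CPM after CKI, 3401 ± 100.2 after Kushen and 6728 ± 182 after Baituling (mean ± SD, n = 3). The ranges were 2728 to 2925, 3286 to 3472 and 6610 to 6938 CPM, which do not overlap. Without TMM scaling this was a mean of 0.307%, 0.351% and 0.599% of all counts of a library. The alpha sum was 616 ± 13.0 CPM after CKI, 694 ± 41.3 after Kushen and 1879 ± 79.3 after Baituling, and the beta sum was 2207 ± 89.4, 2707 ± 58.9 and 4849 ± 109. CKI thus had 32.8% of the alpha sum of Baituling and 45.5% of its beta sum. The ratio of alpha to beta, both per kilobase, was 0.297 ± 0.00852 after CKI, 0.277 ± 0.00960 after Kushen and 0.425 ± 0.0101 after Baituling, and its lowest Baituling library (0.413) lay above the highest of the others (0.304). These sums are dominated by the abundant genes and are descriptions of the libraries.

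**Figure D3:**
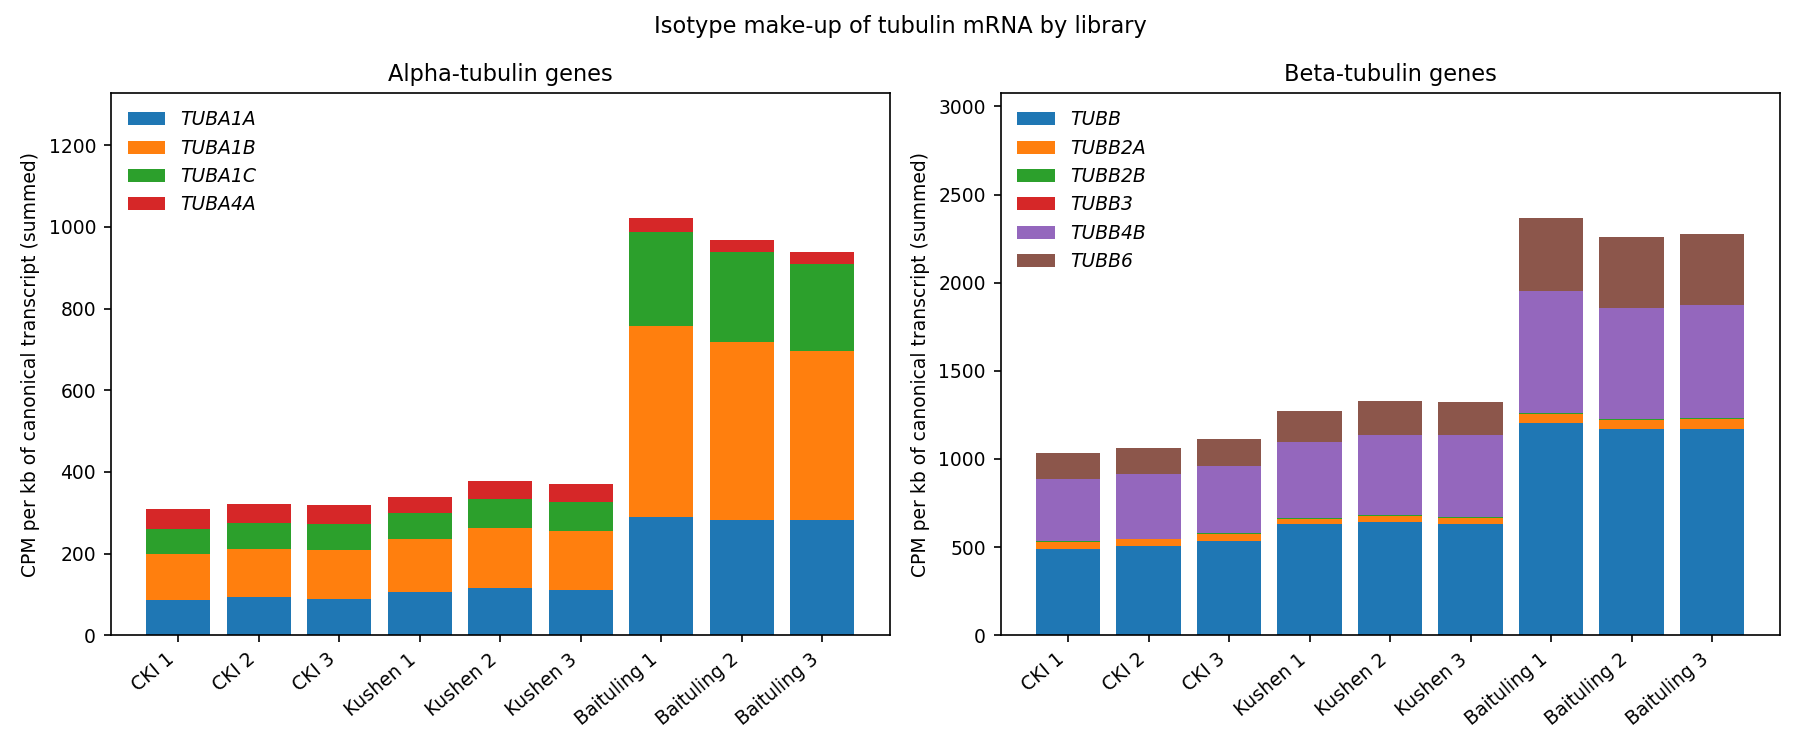
Stacked CPM per kilobase of canonical transcript in each of the 9 libraries, for the 4 alpha genes (left) and the 6 beta genes (right), on linear axes from 0. Both stacks are tallest in the 3 Baituling libraries, and the mean ratio of the alpha to the beta stack is 0.425 in Baituling, 0.297 in CKI and 0.277 in Kushen.

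The make-up of each pool also differed. TUBA4A made up 15.1% ± 0.397 of the alpha mRNA per kilobase in CKI, 11.5% ± 0.217 in Kushen and 3.18% ± 0.116 in Baituling. TUBA1B made up 36.9%, 39.0% and 45.0% in that order, while TUBA1A stayed between 28.0% and 30.5%. In the beta pool TUBB was 47.8%, 48.6% and 51.4%, TUBB4B was 34.2%, 34.4% and 28.5%, and TUBB6 was 13.9%, 14.1% and 17.5%. TUBB2A took 3.59% in CKI and 2.35% in Baituling, although its own CPM was higher in Baituling.

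Of the 12 other tubulin genes listed, 11 were rows of the table and 6 passed the filter. In CKI against Kushen 2 passed the test and both were higher, in CKI against Baituling 2 were higher and 1 lower, and in Kushen against Baituling again 2 were higher and 1 lower. With library totals 5 were higher and none lower in CKI against Baituling, where the median over all genes was 0.32. The lower result of TUBG1 and the number higher thus rest on the scaling. TUBD1, the delta tubulin of centrioles, was higher in CKI than in Kushen (0.29 ± 0.09, adjusted p = 0.0141) and Baituling (0.55 ± 0.10, adjusted p = 3.30e-05). TUBG1, the gamma tubulin that nucleates microtubules, was lower by comparison with Baituling in CKI (-0.29 ± 0.05, adjusted p = 3.75e-05). TUBAL3, an alpha-like gene, was called higher in CKI than in Baituling (1.88 ± 0.35, adjusted p = 8.36e-05) on 5 to 39 counts per library. It was also called higher in Kushen against Baituling, where the libraries overlapped (1.05 ± 0.40, adjusted p = 0.0230). TUBAL3 passed the filter through the CKI and Kushen libraries, where it was higher. The untested TUBA3C, TUBA3D, TUBA3E, TUBA8 and TUBB1 had at most 10 counts in a library.

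Counts for the lists below are to be read beside the shares of all genes that passed, which were 39.1% higher and 37.0% lower in CKI against Baituling. For Kushen against Baituling they were 35.6% and 36.1%, and for CKI against Kushen 19.6% and 20.2%. The mRNAs of the autoregulation machinery had no call at the fold threshold. TTC5 had 18.8, 16.9 and 19.8 CPM in CKI, 17.5, 18.0 and 16.6 in Kushen, and 16.0, 16.1 and 15.5 in Baituling. Its log2 fold change was 0.09 ± 0.07 in CKI against Kushen (adjusted p = 0.346), 0.22 ± 0.08 in CKI against Baituling (adjusted p = 0.0140) and 0.13 ± 0.08 in Kushen against Baituling (adjusted p = 0.142). SCAPER had 10.0, 10.2 and 9.52 CPM in CKI, 11.0, 11.4 and 11.3 in Kushen, and 8.78, 8.88 and 8.12 in Baituling, with -0.18 ± 0.08 (adjusted p = 0.0912), 0.21 ± 0.09 (adjusted p = 0.0421) and 0.39 ± 0.09 (adjusted p = 0.000632) in the same comparisons. Over the 12 genes for TTC5, SCAPER and CCR4-NOT subunits, 2 were higher and none lower in CKI against Kushen (median 0.02), 6 higher and 4 lower in CKI against Baituling (median 0.10), and 4 higher and 3 lower in Kushen against Baituling (median 0.09). With library totals 8 were higher and 2 lower in CKI against Baituling (median 0.39). CNOT1, the scaffold of the complex, was higher in CKI than in Baituling (0.43 ± 0.05, adjusted p = 5.91e-08) and CNOT10 was lower (-0.58 ± 0.07, adjusted p = 1.59e-07). Levels of mRNA do not measure the activity of these proteins.

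Genes that fold new tubulin were lower than in Baituling by small amounts that depend on the scaling. Prefoldin hands nascent tubulin to CCT, a ring-shaped chaperonin, and 5 of its 6 subunits were lower in CKI than in Baituling (median -0.29), led by PFDN6 (-0.44 ± 0.05, adjusted p = 4.67e-08), while in Kushen against Baituling 4 were lower (median -0.28). All 8 CCT subunits were lower in CKI than in Baituling (median -0.40), with CCT3 at -0.53 ± 0.04 (adjusted p = 3.52e-10), and 7 were lower in Kushen than in Baituling (median -0.26). Between CKI and Kushen no prefoldin subunit passed (median -0.04) and 2 CCT subunits were lower (median -0.06), with CCT4 at -0.22 ± 0.05 (adjusted p = 0.00117).

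With library totals, applied to the lists after the data were seen, the median over all genes was 0.32 in CKI against Baituling. The list medians there were -0.00012 for prefoldin, with 2 higher and 2 lower, and -0.12 for CCT, with 1 higher and 5 lower. Both list medians thus stayed below that of all genes. In Kushen against Baituling the list medians were -0.07 and -0.05, beside 0.23 for all genes, with 3 lower and 1 higher in each list.

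The folding cofactors, which join alpha to beta after CCT, went the same way. Of 7, 6 were lower and 1 higher in CKI against Baituling (median -0.41), 6 lower in Kushen against Baituling (median -0.33), and 4 lower and 1 higher in CKI against Kushen (median -0.15). With library totals 4 were lower and 2 higher in CKI against Baituling (median -0.12). ARL2, a small GTPase that works with cofactor TBCD, had 50.1, 53.8 and 59.4 CPM in CKI, 70.3, 74.3 and 75.8 in Kushen, and 141, 133 and 126 in Baituling. The groups did not overlap, and ARL2 was the only called gene of the list, at -1.30 ± 0.06 in CKI against Baituling (adjusted p = 1.72e-13) and -0.86 ± 0.06 in Kushen against Baituling (adjusted p = 8.37e-11, not called). TBCD was at -0.60 ± 0.05 in CKI against Baituling (adjusted p = 1.02e-09), and TBCC, which spurs GTP hydrolysis by tubulin during folding, exceeded its Kushen level in CKI (0.28 ± 0.05, adjusted p = 0.000218).

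Most genes for proteins that hold free dimer or take microtubules apart were lower than in Baituling. Of 11 genes listed 7 were tested, and 6 were lower in CKI than in Baituling, 5 of them called (median -1.76). The counts were the same in Kushen against Baituling (median -1.40), and 4 were lower in CKI against Kushen with none called (median -0.14). With library totals 5 were lower, 4 of them called, and 1 higher in CKI against Baituling (median -1.47). STMN1, stathmin, which sequesters free dimers, had 216, 226 and 235 CPM in CKI, 272, 252 and 253 in Kushen, and 790.4, 739 and 758 in Baituling. Its log2 fold change was -1.76 ± 0.05 in CKI against Baituling (adjusted p = 5.10e-17) and -1.56 ± 0.05 in Kushen against Baituling (adjusted p = 4.12e-16). KIF2C, a kinesin that depolymerises microtubule ends at mitosis, was at -1.95 ± 0.05 in CKI against Baituling (adjusted p = 1.06e-17), and KIF18A, KIF18B and STMN3 were between -1.98 and -1.27. KIF24 was at -0.34 ± 0.10 (adjusted p = 0.00543), and KIF2A, another depolymerising kinesin, was at 0.03 ± 0.05 (adjusted p = 0.582), 2 genes outside the naming rule that complete the list.

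The gamma-tubulin ring complex, the template for new microtubules, had 6 of 10 tested genes lower in CKI than in Baituling (median -0.33), 6 lower and 2 higher in Kushen against Baituling (median -0.19), and 5 lower in CKI against Kushen (median -0.14). With library totals 4 were lower and 4 higher in CKI against Baituling (median -0.04). The called genes were MZT2A (-1.88 ± 0.07, adjusted p = 6.09e-15) and MZT2B (-1.66 ± 0.05, adjusted p = 1.05e-15), small subunits of the complex that are called lower in both comparisons with Baituling. They are near-identical copies whose reads may have been split between them. MZT1, another small subunit, was at -0.77 ± 0.06 in CKI against Baituling (adjusted p = 3.69e-10).

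Enzymes that modify tubulin after synthesis were mixed, and their counts were near or below the shares of all genes. Of 18 tested, 7 were higher and 5 lower in CKI against Baituling (median 0.13), 4 higher and 4 lower in Kushen against Baituling (median 0.10), and 2 higher and 2 lower in CKI against Kushen (median -0.03). With library totals 12 were higher and 2 lower in CKI against Baituling (median 0.42). VASH1, a carboxypeptidase that removes the last tyrosine of alpha tubulin, had 8.87, 7.70 and 8.37 CPM in CKI, 9.98, 9.85 and 9.45 in Kushen, and 2.15, 2.47 and 2.59 in Baituling. It was called higher in CKI against Baituling (1.79 ± 0.13, adjusted p = 1.40e-10) and in Kushen against Baituling (2.03 ± 0.13, adjusted p = 2.40e-11). TTLL7, which adds glutamate chains to beta tubulin, was called higher in both as well (1.39 ± 0.06, adjusted p = 1.59e-13, and 1.40 ± 0.06, adjusted p = 2.33e-13). TTLL3, a glycylase, was called higher only in Kushen against Baituling (1.10 ± 0.18, adjusted p = 2.06e-05), and it stood at 0.76 ± 0.18 in CKI against Baituling (adjusted p = 0.00103). HDAC6, the main tubulin deacetylase, stood below its Kushen level in CKI (-0.30 ± 0.05, adjusted p = 8.96e-05). Lower in CKI than in Baituling were VASH2 (-0.90 ± 0.21, adjusted p = 0.000817), TTLL11 (-0.53 ± 0.10, adjusted p = 8.28e-05) and SVBP (-0.32 ± 0.07, adjusted p = 0.000463). HDAC6 (-0.28 ± 0.05, adjusted p = 5.34e-05) and SIRT2 (-0.20 ± 0.05, adjusted p = 0.000949) were also lower there.

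Microtubule stabilisers and end-binding proteins held calls in both directions. Their counts by adjusted p were near the shares of all genes in the comparisons with Baituling. At the fold threshold 5 were called higher and 1 lower in CKI against Baituling, beside 11.2% and 7.91% of all genes. In Kushen against Baituling 4 were called higher and 1 lower, beside 8.50% and 6.73%. All 19 were tested, with 8 higher and 6 lower in CKI against Baituling (median 0.06), 8 higher and 5 lower in Kushen against Baituling (median 0.08), and 4 higher and 4 lower in CKI against Kushen (median -0.03). With library totals 13 were higher and 3 lower in CKI against Baituling (median 0.34). MAP2, best known from dendrites, was at 2.52 ± 0.10 in CKI against Baituling (adjusted p = 1.38e-14) and 2.79 ± 0.10 in Kushen against Baituling (adjusted p = 3.63e-15). MAP1A, a neuronal stabiliser, had 3.02, 3.26 and 3.00 CPM in CKI, 1.41, 1.48 and 1.69 in Kushen, and 0.34, 0.33 and 0.28 in Baituling. It was the only gene in these lists called in CKI against Kushen (1.02 ± 0.18, adjusted p = 0.000167). It was at 3.27 ± 0.26 in CKI against Baituling (adjusted p = 7.77e-10), where the Baituling libraries held 5 to 7 counts each. MAP1A passed the filter on low counts through the CKI and Kushen libraries, where it was higher. MAPRE3, MAP9 and MAPT (tau) were also called higher in CKI against Baituling, between 1.07 and 1.39. MAP1A, MAPRE3 and MAPT were called higher in Kushen against Baituling, between 1.08 and 2.24. TPX2, a spindle assembly factor, was called lower in CKI against Baituling (-1.73 ± 0.04, adjusted p = 1.53e-17), with -1.64 ± 0.04 in Kushen against Baituling (adjusted p = 4.83e-17).

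**Figure D4:**
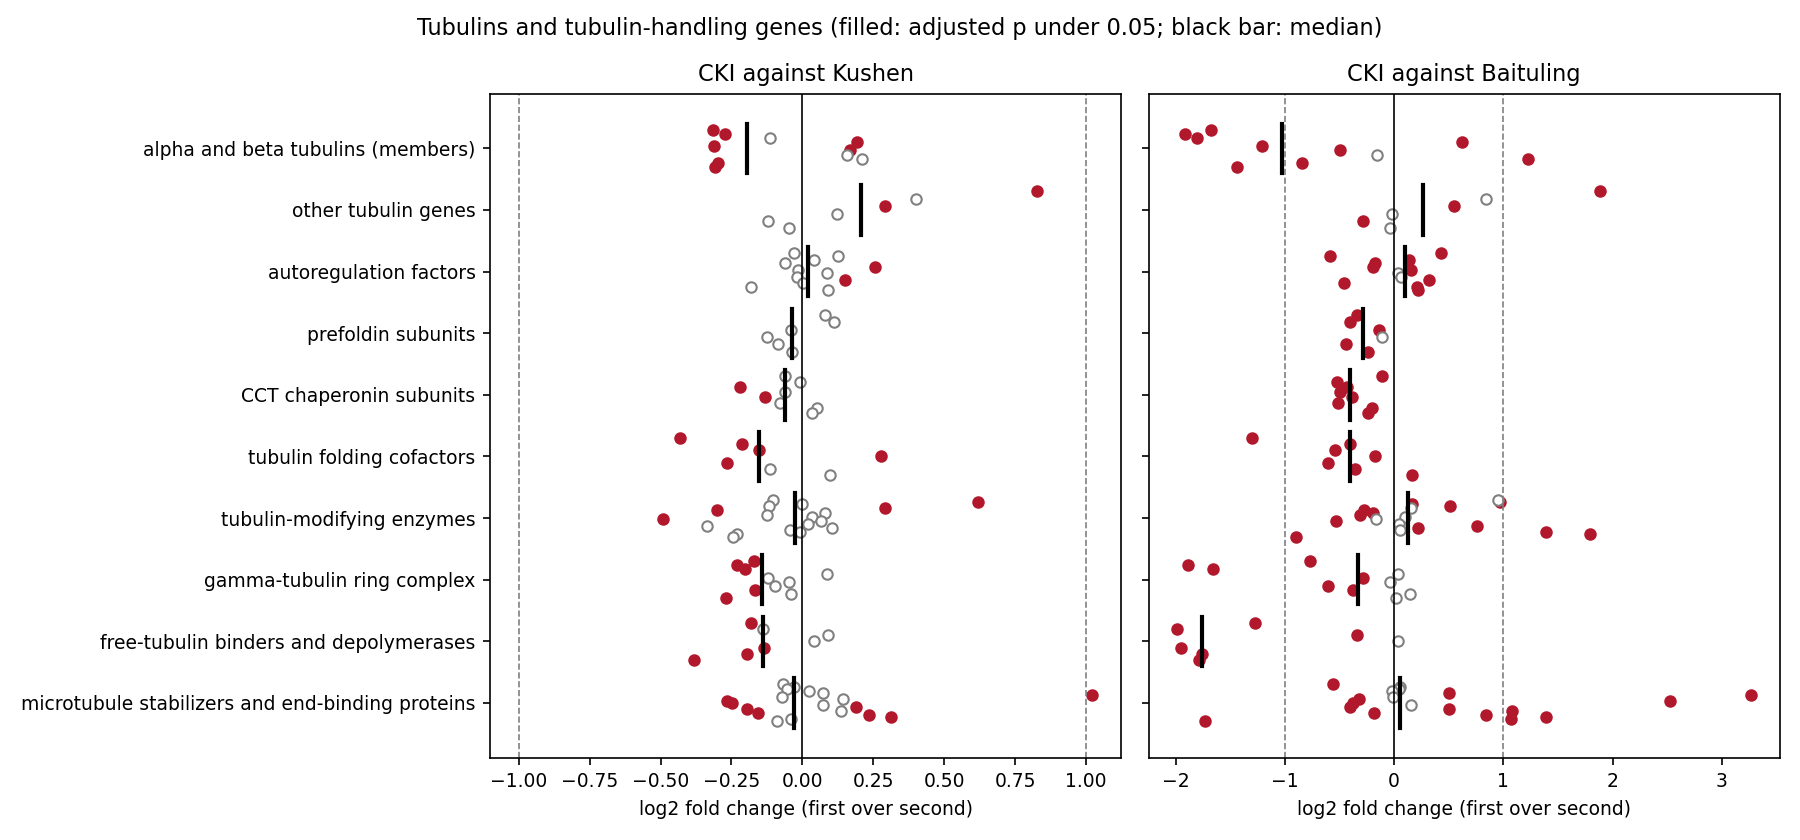
Log2 fold changes in CKI against Kushen (left) and CKI against Baituling (right) for each tested gene of the tubulins and of the 9 lists of related genes, with filled points for an adjusted p under 0.05, dashed lines at the fold threshold and a black bar for the median of the list. In CKI against Baituling the medians were lowest for the free-tubulin binders and depolymerases (-1.76) and for the tubulins (-1.03), and the folding machinery lay between -0.41 and -0.29.

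The genes whose log2 CPM followed TUBA1B and TUBB most closely over the 9 libraries were sought among the 8559 genes that averaged 4 or more in log2 CPM. For TUBA1B they were CDC20, PSMB8, CKB, TMEM165 and PFN1, each with a Pearson r of 0.999. CDC20, which activates the anaphase-promoting complex, had a log2 fold change of -2.34 in CKI against Baituling, and PFN1, an actin-binding protein, had -1.68. For TUBB they were MCM3, RPS2, ACTB, PCLAF and DEPDC1, again each with an r of 0.999. ACTB, the cytoplasmic beta actin often used as a reference gene, averaged 2156 CPM after CKI, 2911 after Kushen and 7172 after Baituling. MCM3, a replication helicase subunit, had -1.37 in CKI against Baituling. Within the members, TUBA1A and TUBB6 had an r of 0.998, and TUBA1A and TUBA4A had -0.965. The libraries form 3 tight groups and share their scaling, so these r values largely restate the differences between the treatments. These 10 genes were picked for their likeness, they share no single function, and their part in the tubulin differences was not tested.

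As a check of the label, the markers expected in this line were read first: VIM had a mean of 351 to 2070 CPM over the 3 treatments, CD44 616 to 904 and AXL 534 to 1025, and SPARC was low at 0.877 to 2.86. ESR1 and PGR, the hormone receptors this line lacks, had at most 0.18 CPM in any library, and the epithelial CDH1 had a mean between 0.587 and 2.01. The other markers expected to be low were at higher levels, with means of 56.8 to 104 CPM for ERBB2, 9.12 to 23.3 for GATA3 and 7.32 to 13.6 for EPCAM, and they and SPARC go against the label as fixed. Markers also differed between treatments. VIM, whose vimentin filaments are another part of the cytoskeleton, was called lower in CKI against Baituling (-2.56) and Kushen against Baituling (-1.83), as were SPARC (-1.60 and -1.70), GATA3 (-1.35 and -1.31) and CDH1 (-1.34 and -1.75). All 4 expected markers and the 4 tested of the 6 expected to be low were lower by adjusted p in both comparisons, and in CKI against Kushen 2 and 1 were lower. Their part in the tubulin differences was not tested.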

How the data were processed

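RNA of 9 libraries of MDA-MB-231 cells (3 each of CKI, Kushen and Baituling) was sequenced as unstranded pairs of reads. Per the labels and the study's methods, the authors trimmed reads with Trim Galore 0.3.7, aligned them to hg19 with STAR 2.5.3a and deposited raw counts per gene without normalization. The counting program and annotation are not given in the sources used here. Of 24566 rows, 222 repeated an Ensembl gene with the same counts and were dropped. Symbols came from GENCODE on GRCh37, the assembly of hg19 (24224 genes), and by Ensembl or Entrez identifier from RefSeq (99 genes). A further 21 genes had no name.

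Filtering by filterByExpr in edgeR 4.0.16 (R 4.3.3, minimum count 10, minimum total 15), TMM and glmQLFit with group as the only term were run over all 9 libraries, which share 1 estimate of spread (common biological coefficient of variation 4.53%), and were tested on simulated data. Tests were two-sided with Benjamini-Hochberg adjustment over 14195 genes. An exact permutation test of 3 against 3 libraries cannot go below p = 0.1, so none is given. Replicates of a group differed by more than counting error (chi-square per gene 1.70 to 6.85 in 9 pairs). Same-numbered libraries of different groups deviated with correlations of -0.07 to 0.12, so numbers were not treated as pairs. Log2 CPM for correlations used a prior count of 2.

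The members and the lists (other tubulins, autoregulation factors, prefoldin, CCT, folding cofactors, modifying enzymes, gamma-tubulin ring complex, free-tubulin binders and depolymerases, stabilisers and end-binding proteins, line markers) were chosen with earlier results of these data known. TUBG1 and TUBG2 are on 2 of the lists. All members were named, and from each list the 3 genes with the smallest adjusted p per comparison at most, every called gene, TTC5 and SCAPER. KIF2A, KIF24, VASH2, TTLL11, SVBP and SIRT2 were named after their values were seen. DESeq2 1.42.0, other scalings and filters, left-out libraries and the replicate number as a term were the alternatives.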

Additional observations from a re-analysis of the deposited data

How the results depend on the processing

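The number of members past the test was 6 to 8 in CKI against Kushen, 8 to 10 in CKI against Baituling and 8 to 10 in Kushen against Baituling over library totals, upper-quartile scaling, DESeq2, no filter, at least 10 counts in every library, a fit of only the groups compared and leaving out each library in turn. The number called was 0, 5 to 6 and 4 to 5, with glmTreat included. With the replicate block 7, 9 and 10 members passed and 0, 6 and 5 were called, and no call changed. Of the 9 libraries, 1 correlated best with its own number. 2 signs turned: TUBB3 in CKI against Kushen was -0.10 without CKI replicate 2 (range over left-out libraries -0.10 to 0.36), and TUBB2B in CKI against Baituling was 0.13 with library totals. Neither passed the test there or with all libraries on the TMM scale. Library totals also took TUBB in CKI against Baituling (-0.92) and TUBB6 in Kushen against Baituling (-0.92) below the fold threshold. TUBB3 was left without a value where 10 counts were asked of every library, and in Kushen against Baituling it ranged from 0.83 to 1.36 over left-out libraries, with adjusted p up to 0.0808. TUBB2B in Kushen against Baituling lost its adjusted p with library totals (-0.10, 0.413), upper-quartile scaling (-0.25, 0.0586) and without Kushen replicate 1, Baituling replicate 1 or Baituling replicate 3. TUBB2A in CKI against Kushen lost it without CKI replicate 3 (0.14, 0.0566), and TUBA1C there gained it with DESeq2 (-0.13, 0.0463), with no filter (-0.12, 0.0370) and without Kushen replicate 1 or Baituling replicate 1. Summed copies were added after the data were seen. The causes were not tested. Depth limits TUBB3 and TUBB2B most, with counts per library of at most 43 and 264.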
